A study of Mus musculus with 20 samples.

Results

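The response of activated mouse CD8+ T cells to native murine interleukin-21 (mIL-21) at 100 pM, the lowest dose of the study, was described across all genes from 4 of its 20 RNA-seq libraries. They were chosen by their labels alone, as the duplicates given mIL-21 at 100 pM for 24 hours and the duplicates left unstimulated in experiment 1, and comparisons within that experiment were fitted on all 10 of its libraries. All cells, the unstimulated ones included, came from the spleens of wild-type C57BL/6J mice aged 6 to 8 weeks. They were purified as CD8+ T cells by negative magnetic selection, pre-activated for 48 hours on bound anti-CD3 with anti-CD28 in solution, and rested overnight. The 24 hours that followed are given for the cytokine-treated cells only. No such time is given for the unstimulated cells, and whether time in culture was matched is not known here. The other groups of experiment 1 received mIL-21 at 1 nM or the computationally designed IL-21 mimic 21h10 at 100 pM or 1 nM, and experiment 2 had its own unstimulated cells and doses of 10 and 100 nM of either cytokine. The study's methods state in general that its RNA-seq used independent replicates, taken from different preparations or donors. The labels do not tie the duplicates of a group to animals or cultures, so the p-values measure the spread between these libraries, which may in part be technical.

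IL-21 is made mainly by CD4+ T cells and acts through the IL-21 receptor, which pairs with the common gamma chain. The receptor's kinases JAK1 and JAK3 phosphorylate mainly STAT3 and also other STAT proteins such as STAT5, and the STAT proteins enter the nucleus and switch on genes such as the feedback inhibitor Socs3. In CD8+ T cells the cytokine is known for promoting cytotoxic function while retaining features of memory precursors.

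Reads on genes came to 94079673 and 55278125 in the unstimulated libraries and 45848393 and 36829350 in those with mIL-21 at 100 pM, so the unstimulated group was the deeper one. Levels are given as CPM, counts per 1000000 reads of the library size scaled by TMM (a factor that keeps most genes even across libraries), and differences as log2 fold changes with their standard error (SE), where 1 is a doubling. The duplicates lay close together, with a coefficient of variation of 4.32% in experiment 1 beyond counting error. On the first principal component of experiment 1, which held 70.2% of the variance, the unstimulated libraries stood at -107 and -108 and all 8 treated libraries between 2.12 and 44.6, so the unstimulated pair stood apart from every cytokine-treated group and each value against it rests on those 2 libraries. The 7 genes marking CD8+ T cells summed to between 3223 and 3237 CPM without cytokine and 5329.6 to 5336 CPM with it, here relative to all reads on genes, and Cd8a itself stood at 382 and 383 CPM in the unstimulated libraries and 508 and 500.4 CPM at 100 pM. On the same scale the summed markers of 6 other cell classes (CD4+ T cells, B cells, macrophages and monocytes, natural killer cells, neutrophils and red blood cells) stayed at or below 49.1 CPM in every library. Some of them were nonetheless higher with mIL-21: the CD4+ T cell markers went from between 22.79 and 23.01 to between 48.7 and 49.1 CPM (mostly Zbtb7b), the B cell markers from between 11.3 and 11.5 to between 14.96 and 16.07 CPM, the macrophage markers from between 4.59 and 4.71 to between 16.6 and 17.1 CPM (mostly Cd68) and the natural killer markers from at most 0.882 to 1.44 CPM. The dendritic cell markers moved from between 3.42 and 4.26 to between 35.9 and 36.3 CPM, nearly all of it Itgax, and the stromal markers moved from between 19.0 and 19.3 to between 69.1 and 72.7 CPM, nearly all of it Pecam1, both of which T cells can express. The part of other cells in the results was not tested. In bulk RNA, fewer cells of a type and less RNA per cell cannot be told apart.

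Most of the expressed transcriptome differed between the groups. Of 13974 genes tested with edgeR's quasi-likelihood test at a Benjamini-Hochberg adjusted p under 0.05, 10858 (77.7%) passed, 5352 (38.3%) higher and 5506 (39.4%) lower with mIL-21, and 11010 (78.8%) had an unadjusted p under 0.05. Many of these differences were small: 30.5% of the genes called had an absolute log2 fold change under 0.5, and the smallest one called was 0.097. Counting only changes of 1 or more on the log2 scale, 2302 genes (16.5%) were higher and 1614 (11.6%) lower. The median over all genes was -0.004, and the middle of the distribution ran from -0.57 at the first quartile to 0.67 at the third. The libraries of the groups did not overlap for 12609 genes (90.2%). Against this background a call by itself says little about a gene, and the groups of genes below are described by the size and direction of their change. The counts of listed genes in this comparison stand beside 38.3% higher and 39.4% lower of all genes. With 2 libraries a group, the smallest two-sided p of an exact permutation test is 0.33.

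**Figure D1:**
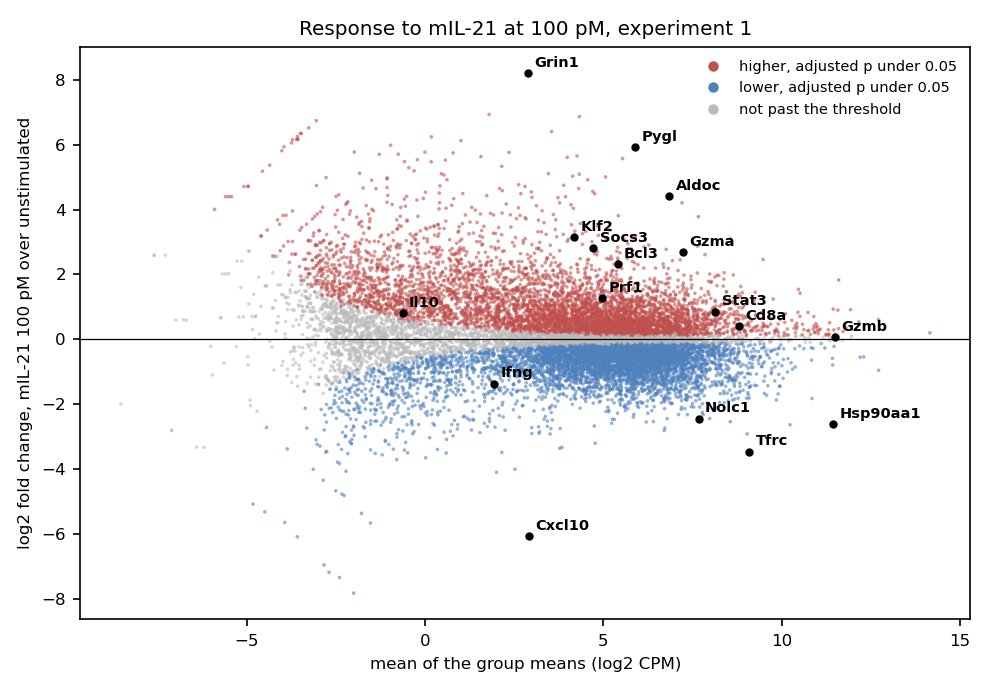
Log2 fold change of each tested gene at mIL-21 100 pM over unstimulated (vertical axis) against the mean of both group means in log2 CPM (horizontal axis), experiment 1, 2 libraries a group. Red and blue points are the 5352 higher and 5506 lower genes, grey points did not pass the threshold, and 7 genes without reads in these 4 libraries are left out. Socs3, Klf2 and Aldoc lie far above 0 and Tfrc, Nolc1 and Cxcl10 far below it.

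The receptor and its signaling chain were also expressed in the unstimulated libraries and changed moderately. Il21r, the cytokine's own receptor chain, stood at 125 and 121 CPM in the unstimulated libraries and 142.9 and 135.8 CPM at 100 pM, a log2 fold change of 0.18 (SE 0.047, adjusted p = 0.00261). Il2rg, the shared gamma chain, was at 404 and 393 CPM in the unstimulated libraries and 481 and 485 CPM at 100 pM, or 0.28 (SE 0.044, adjusted p = 1.78e-05). Both receptor chains were thus higher in both treated libraries, by small amounts, and Il2rg shares 30.5% of its exonic bases with another annotated gene on the same strand. Without the first mIL-21 library Il21r did not pass the threshold (0.14, adjusted p = 0.0644).

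Jak3, the kinase bound to the gamma chain, showed the largest rise of this group, with 106 and 111 CPM in the unstimulated libraries and 329 and 314 CPM at 100 pM and a log2 fold change of 1.57 (SE 0.057, adjusted p = 6.62e-14). Jak1 rose by 0.73, Stat3 by 0.86 and Stat5b by 0.71. Stat5a, at 108 and 112 and then 105 and 101 CPM, did not pass the threshold (-0.09, SE 0.048, adjusted p = 0.0842). Of all 13 receptor, kinase and STAT genes on the JAK-STAT list, 11 rose, 1 fell and 1 did not pass the threshold, with a median of 0.47.

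Among the feedback inhibitors, Socs3 stood out. Socs3, which binds JAK kinases and blocks further signaling, lies at chr11:117966079-117970336 (GRCm38.p6, RefSeq) and stood at 6.57 and 6.67 CPM in the unstimulated libraries and 47.8 and 44.6 CPM at 100 pM. Both treated libraries lay well above both unstimulated ones, a log2 fold change of 2.81 (SE 0.073, adjusted p = 1.07e-15). Cish, a target of STAT5, rose by 0.65, while Socs2 fell by 0.95 and Socs4 by 0.78. Socs1, at 19.4 and 20.1 CPM in the unstimulated libraries and 20.9 and 19.2 CPM at 100 pM, did not pass the threshold (0.03, SE 0.11, adjusted p = 0.825). Of the 8 genes of the family 3 rose, 3 fell and 2 did not pass the threshold. Both counts were near the shares of all genes (38.3% higher and 39.4% lower). Bcl3, which encodes a nuclear cofactor of NF-kappaB and is a known STAT3 target, had 13.5 and 14.99 CPM in the unstimulated libraries and 72.4 and 68.7 CPM at 100 pM, a log2 fold change of 2.32 (SE 0.082, adjusted p = 5.08e-14). Pim1, a survival kinase induced by STAT proteins, went from 41.6 and 42.9 to 99.5 and 92.8 CPM (1.19, SE 0.053, adjusted p = 1.02e-12).

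STAT proteins bind a spaced palindrome, TTCNNNGAA, which reads the same on both strands, and interferon-activated factors bind a repeat of GAAA with any 2 bases between the copies, sought on both strands. The motifs can overlap by a shared GAA. Both were looked for in RefSeq promoter windows of GRCm38.p6, from 250 bases before to 50 after a start, which 28 of 32 core genes and 10254 of the 13974 tested genes had. Of the 28 core genes, 6 held the STAT motif and 3 the interferon motif. The stretches before the start that hold such letters are shown for the STAT target Socs3, for Bcl6 and for Cxcl10, whose fall is described below. Among the core genes and the largest rises and falls scanned 1 by 1, a window of Bcl6 has the largest number of STAT palindromes. Genes named through the lists alone were not scanned in this way. The stretches run 5′ to 3′ on the gene's strand with the matched letters in capitals.
Socs3, chr11:117969492-117969540, minus strand: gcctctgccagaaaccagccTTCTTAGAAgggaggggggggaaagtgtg
Bcl6, chr16:23981343-23981471, minus strand: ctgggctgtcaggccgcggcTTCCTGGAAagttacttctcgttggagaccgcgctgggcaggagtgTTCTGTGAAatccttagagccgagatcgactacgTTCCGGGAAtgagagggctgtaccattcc
Cxcl10, chr5:92349073-92349122, minus strand: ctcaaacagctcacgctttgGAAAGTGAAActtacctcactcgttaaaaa
The palindrome of Socs3 began 154 bases before the transcript start that its window covers, and this window lies within the gene's interval given above. Those of Bcl6 began between 168 and 88 bases before one of its starts, which lies within the gene (chr16:23965050-23988866). The window nearest the 5′ end of Bcl6 held 1 palindrome, 118 bases before its start. The interferon motif of Cxcl10 began 213 bases before its start. Across the genome 8.30% of all windows held TTCNNNGAA and 3.44% held the GAAA repeat. Per gene with a window, TTCNNNGAA was found for 8.39% of those higher by a log2 fold change of at least 1, 9.31% of those lower by as much and 8.37% of all tested genes, and the GAAA repeat for 3.98%, 3.74% and 3.80%. For neither motif did the shares separate the genes that rose from those that fell, and a match or its lack in such a window is a description of letters only.

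Most transcription factors of effector differentiation rose at this dose. Prdm1, which encodes the repressor Blimp-1, stood at 11.9 and 12.1 CPM in the unstimulated libraries and 39.4 and 38.7 CPM at 100 pM, a log2 fold change of 1.70 (SE 0.059, adjusted p = 3.55e-14). Bcl6, which encodes a repressor that opposes Blimp-1, rose as well, from 4.49 and 5.16 to 15.3 and 15.8 CPM (1.70, SE 0.087, adjusted p = 6.35e-12). Both of these antagonists were thus higher in the same libraries. Eomes, a T-box factor of memory and killer cells, rose by 0.37. Tbx21, the related T-box factor, did not pass the threshold, at 80.5 and 79.2 CPM in the unstimulated libraries and 77.0 and 73.6 CPM at 100 pM (-0.08, SE 0.058, adjusted p = 0.188). Irf4 and Batf, which work together downstream of the T cell receptor, fell by 0.98 and 0.33. Maf was scarcely expressed, at 1.89 and 1.44 CPM in the unstimulated libraries and 1.75 and 1.69 CPM at 100 pM, with a log2 fold change of 0.02 (SE 0.17, adjusted p = 0.924). Of the 18 factors on the list, 13 rose, 2 fell and 3 did not pass the threshold, and the median was 0.68.

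The cytotoxic genes varied in size and direction of change. Gzma, which encodes granzyme A and lies at chr13:113093824-113100981, stood at 40.0 and 41.1 CPM in the unstimulated libraries and 266 and 259.9 CPM at 100 pM, a log2 fold change of 2.70 (SE 0.053, adjusted p = 4.64e-17). Gzmk, another granzyme gene, rose the most of the list, from 1.11 and 1.25 to 18.0 and 18.5 CPM (3.96, SE 0.10, adjusted p = 1.03e-15). Prf1, the gene of the pore-forming protein perforin, rose to 45.9 and 43.0 CPM from 18.6 and 18.4 (1.27, SE 0.069, adjusted p = 1.43e-11). Gzmb, by far the most abundant granzyme transcript per length at a mean RPKM (the authors' reads scaled by transcript length and mapped reads) of 1679 without cytokine and 1866 with it, was at 2832 and 2792 CPM in the unstimulated libraries and 2954 and 2964 CPM at 100 pM. Its log2 fold change of 0.07 (SE 0.044, adjusted p = 0.139) did not pass the threshold, although both treated libraries lay above both unstimulated ones, and it did pass, still below 0.16, under 4 of the 12 alternative settings. Gzmf fell by 1.48, and Gzmd was uneven between the treated duplicates, at 0.722 and 3.74 CPM against 3.74 and 4.32 (-0.92, SE 0.34, adjusted p = 0.0203). Its call was lost in 4 settings, among them the fit without the first mIL-21 library (-0.10, adjusted p = 0.622). Of 24 genes of killing, 12 rose, 7 fell and 5 did not pass the threshold, with a median of 0.22. All tested genes had 38.3% higher and 39.4% lower. Without the first mIL-21 library 3 fell.

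Cytokine and chemokine genes changed in both directions. Ifng, the gene of interferon gamma, was weakly expressed at 5.60 and 5.45 CPM in the unstimulated libraries and 2.25 and 2.02 CPM at 100 pM, a log2 fold change of -1.37 (SE 0.13, adjusted p = 2.29e-08), and shares 25.9% of its exonic bases with another annotated gene on the same strand. Il10, known as a target of IL-21 in T cells, was at 0.465 and 0.491 CPM in the unstimulated libraries and 0.949 and 0.692 CPM at 100 pM, a rise of 0.81 (SE 0.26, adjusted p = 0.00907) that rested on 46 and 27 treated reads and was lost without the first mIL-21 or the first unstimulated library (adjusted p = 0.177 and 0.0537). Ltb, which encodes lymphotoxin beta, rose by 1.58, and Tnfsf11, the gene of RANKL, fell by 0.94. Among 23 tested cytokine genes of 26 6 rose, 10 fell and 7 did not pass the threshold. Over all tested genes 38.3% were higher and 39.4% lower, so the falls of this list were near the general share.

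Cxcl10, an interferon-induced chemokine gene at chr5:92346638-92348889, showed the steepest fall of these lists. It had 1319 and 844 reads in the unstimulated libraries against 8 and 11 at 100 pM, or 14.3 and 15.3 CPM in the unstimulated libraries and 0.165 and 0.282 CPM at 100 pM, a log2 fold change of -6.07 (SE 0.19, adjusted p = 1.34e-14). Ccl3, the gene of the chemokine MIP-1 alpha, fell by 1.55 at a low level, and Ccl5 was the 1 chemokine gene to rise, by 0.23. Of 10 chemokine genes 1 rose, 6 fell and 3 did not pass the threshold.

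Most genes of quiescence and memory rose. Klf2, which encodes a transcription factor of resting T cells and lies at chr8:72319062-72321654, stood at 3.64 and 3.72 CPM in the unstimulated libraries and 33.5 and 32.1 CPM at 100 pM, so the treated libraries were separated from the others by a log2 fold change of 3.16 (SE 0.082, adjusted p = 9.45e-16). Tcf7, which encodes the memory factor TCF-1, was at 294 and 298 CPM in the unstimulated libraries and 499 and 505 CPM at 100 pM (0.76, SE 0.046, adjusted p = 6.67e-11). Lef1, its relative, rose by 0.34, Il7r by 0.44 and Bcl2 by 0.34. Igfbp4 rose by 2.05, and Dapl1 and Myb fell by 0.38 and 0.30. Ccr7, the lymph node homing receptor, did not pass the threshold at 210.0 and 213 CPM in the unstimulated libraries and 229.9 and 224 CPM at 100 pM (0.10, SE 0.047, adjusted p = 0.0582), but did so, at 0.12 to 0.18, under 4 alternative settings. Of 26 genes 21 rose, 4 fell and 1 did not pass the threshold, and the median was 0.72.

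Surface receptors of several families rose in the same comparison. Of 16 inhibitory and exhaustion-linked genes 15 rose, 1 fell and 0 did not pass the threshold (median 1.13). Lag3, an inhibitory receptor that binds MHC class II, went from 40.5 and 41.2 to 188 and 183 CPM (2.19, SE 0.059, adjusted p = 1.46e-15), and Cd38, an NAD-consuming surface enzyme, from 8.81 and 8.45 to 35.5 and 37.0 CPM. Btla was the member that fell, by 0.40.

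Of 17 integrin and adhesion genes 15 rose, 0 fell and 2 did not pass the threshold (median 1.31). Itgam, the gene of integrin alpha M, had 0.670 and 0.836 CPM in the unstimulated libraries and 15.9 and 14.6 CPM at 100 pM (4.37, SE 0.11, adjusted p = 8.88e-16) and shares 68.7% of its exonic bases with another annotated gene on the same strand. Itgax, that of integrin alpha X, had 3.65 and 2.85 CPM in the unstimulated libraries and 33.3 and 33.7 CPM at 100 pM (3.33, SE 0.094, adjusted p = 3.00e-15). Of 20 tested NK-type receptors and adaptors 15 rose, 0 fell and 5 did not pass the threshold, led by Klrb1f with 3.03. Klra6, an inhibitory receptor gene of natural killer cells, went from 2.93 and 2.83 to 11.2 and 11.8 CPM.

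Of 18 chemokine and migration receptors 12 rose, 3 fell and 3 did not pass the threshold. Cxcr4 rose by 2.77 and Cxcr6 by 2.50, and Ccr4 and Ccr8 fell by 1.96 and 1.58. Cytokine receptors showed 16 rises and 7 falls among 24 genes, the widest rise being that of Ifngr1, a chain of the interferon gamma receptor (1.79), followed by Il18rap, a chain of the IL-18 receptor (1.46), while Il2ra, the high-affinity IL-2 receptor chain, fell by 0.35.

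In the costimulatory and TNF receptor family 11 rose, 1 fell and 1 did not pass the threshold of 13 genes (0 fell without the first mIL-21 or the second unstimulated library), with Tnfrsf9, the gene of 4-1BB, at 120.1 and 117 CPM in the unstimulated libraries and 396 and 404 CPM at 100 pM. Among 27 genes of the T cell receptor complex and its signaling 23 rose, 0 fell and 4 did not pass the threshold (median 0.53), with Plcg1, a phospholipase gene that relays the receptor's signal, up by 1.43. Cd3e itself, a chain of the receptor complex, stood at 224 and 222 CPM in the unstimulated libraries and 507 and 538 CPM at 100 pM (1.23, SE 0.067).

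**Figure D2:**
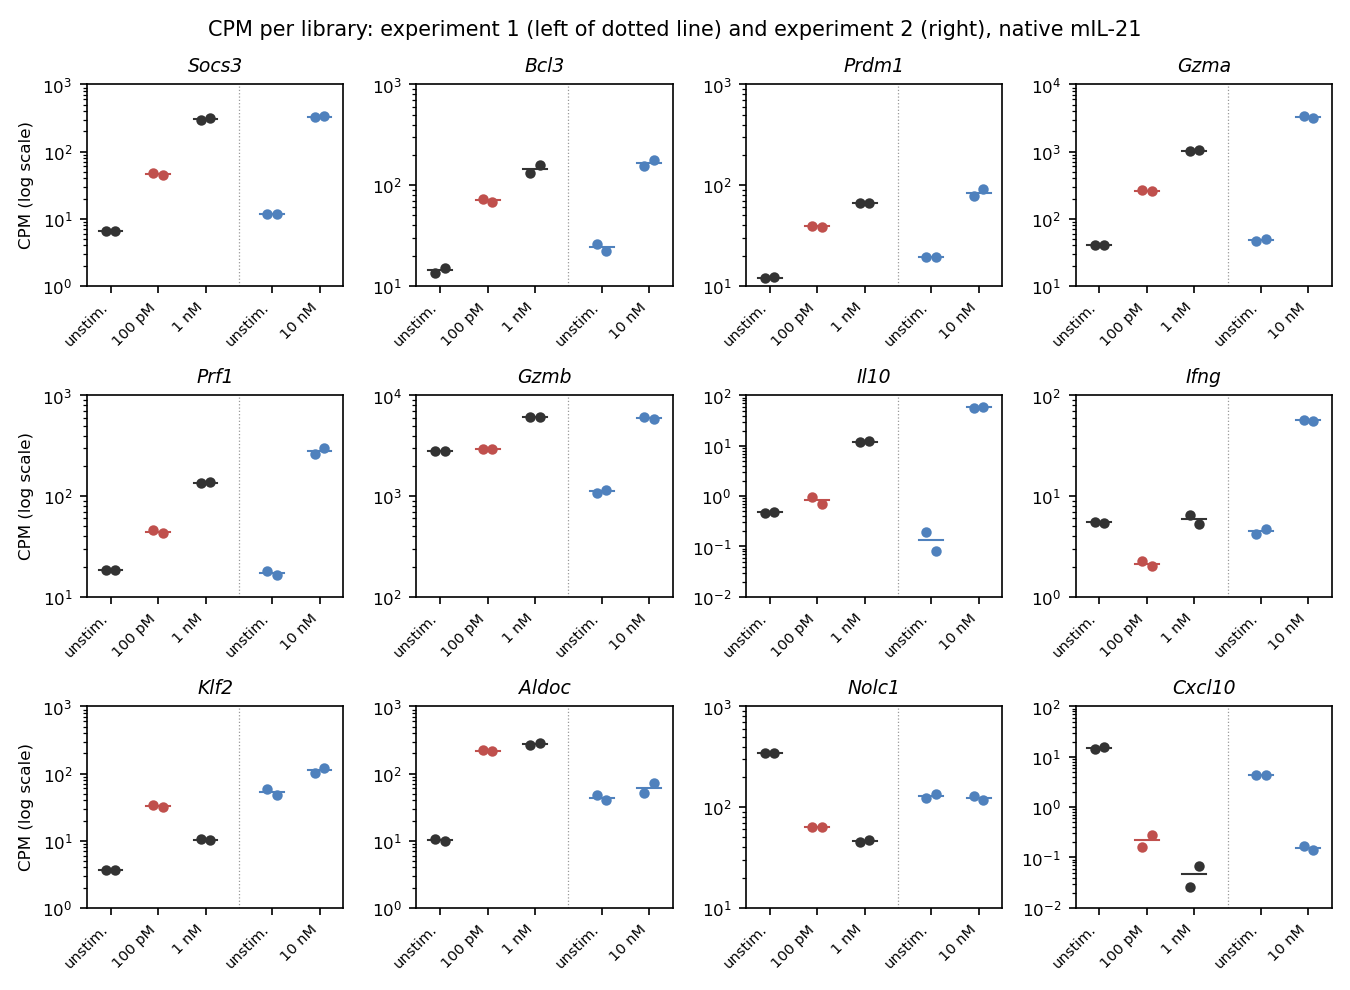
CPM of 12 genes in each library (points, log scale) with the mean of each pair of duplicates (bars). Left of the dotted line are the libraries of experiment 1 without cytokine and with mIL-21 at 100 pM (red) and 1 nM, right of it those of experiment 2 without cytokine and at 10 nM. Within experiment 1, Socs3, Bcl3, Prdm1, Gzma and Prf1 step up with each dose, Gzmb is level at 100 pM and Klf2 is highest there.

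The growth machinery moved in the other direction. All 37 genes on the ribosome biogenesis list fell, 34 of them by a log2 fold change of 1 or more, and their median was -1.66 against a median near 0 over all tested genes. Nolc1, a nucleolar chaperone gene, stood at 347 and 344 CPM in the unstimulated libraries and 63.3 and 63.7 CPM at 100 pM (-2.44, SE 0.048, adjusted p = 4.37e-17). Utp20, a component of the small-subunit processome, went from 181 and 187 to 28.2 and 27.1 CPM (-2.73, SE 0.071, adjusted p = 1.01e-15). Genes of the ribosomal proteins themselves did not follow, with 45 of 79 higher, 9 lower and a median of 0.14. The shares of all genes were 38.3% higher and 39.4% lower. Rpsa, the gene of a small-subunit protein, went from 3751 and 3735 to 5537 and 5344 CPM, and the ribosomal protein paralog gene Rps27l fell by 1.87.

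All 24 heat-shock chaperone genes, a list drawn up after their values had been seen, fell as well (median -1.58). Hsp90aa1, one of the most abundant transcripts of these cells, dropped from 4849 and 4698 to 787 and 783 CPM (-2.60, SE 0.060, adjusted p = 2.74e-16), Hspd1, the mitochondrial chaperonin gene, from 2113 and 2045 to 333 and 339 CPM, and Hsph1 from 933 and 918 to 123.08 and 122.97 CPM. Hspa1b fell the most, by 3.35, but is nearly identical to Hspa1a. Chaperones of the endoplasmic reticulum showed 18 falls and 2 rises among 22 genes, and Hspa5, the gene of BiP, went from 811 and 793 to 260.4 and 255 CPM (-1.64, SE 0.058, adjusted p = 4.28e-14).

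Genes of the cell cycle were lower too. Of 48 DNA replication genes 1 rose, 46 fell and 1 did not pass the threshold, 26 of them with a log2 fold change of -1 or less (median -1.01). Orc1, a subunit of the origin recognition complex, had 69.1 and 67.8 CPM in the unstimulated libraries and 18.6 and 18.9 CPM at 100 pM (-1.87, SE 0.065, adjusted p = 3.58e-14). Fen1, the flap endonuclease gene, fell by 1.82 and shares 84.2% of its exonic bases with a gene on the other strand, while E2f2, a cell cycle transcription factor gene, was the member that rose, by 0.40. Of 40 mitosis genes 3 rose (1 without the first mIL-21 or the second unstimulated library), 34 fell and 3 did not pass the threshold (median -0.48), with Kif20b and Cenpf at -1.56 and -1.46 and Anln at 0.18. The cyclin gene Ccnd2 and its partner Cdk4 fell by 0.73 and 0.71, while Mxd4 and Mxi1, which encode antagonists of Myc, rose by 2.32 and 1.67. Over the whole list of Pim, Myc and G1 genes 12 rose, 5 fell and 2 did not pass the threshold of 19.

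Metabolic genes split by pathway. Of 26 genes of glycolysis and the hypoxia response, 25 rose and 1 fell, 16 of them by at least 1 (median 1.46). Aldoc, an aldolase gene, lies at chr11:78323073-78327781 and stood at 10.7 and 9.99 CPM in the unstimulated libraries and 223 and 218 CPM at 100 pM, a log2 fold change of 4.41 (SE 0.061, adjusted p = 8.55e-19). Slc2a3, which encodes the glucose transporter GLUT3, went from 79.0 and 79.6 to 687 and 676 CPM (3.10, SE 0.049, adjusted p = 4.59e-18). The member that fell was Slc16a1, a lactate transporter gene, by 1.14. Genes of glycogen turnover, a list also made after their values had been seen, showed 14 rises and 1 fall among 18, led by Pygl, the liver-type glycogen phosphorylase gene.

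Of 74 genes of oxidative phosphorylation 6 rose, 63 fell and 5 did not pass the threshold (median -0.54). Ndufa5, a subunit of complex I, fell by 1.75, Atp5g1, a subunit of the ATP synthase, by 1.61, and Ndufv3, another complex I gene, rose by 1.17. On the list of cholesterol and fatty acid synthesis 19 rose, 8 fell and 5 did not pass the threshold of 32, with Idi1 and Fasn down by 1.27 and 1.10 and Pmvk and Mvk up by 1.10 and 1.04. On the list of ATF4 targets and tRNA synthetases 8 rose, 29 fell and 2 did not pass the threshold of 39. Phgdh, the entry enzyme of serine synthesis, fell by 1.34, Cth, a cysteine synthesis gene, by 2.03, and Vldlr, a lipoprotein receptor gene, rose by 5.09. Stc2, the gene of the secreted protein stanniocalcin-2, went from 7.88 and 7.65 to 41.0 and 37.4 CPM (2.34).

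The remaining lists changed in both directions, beside 38.3% higher and 39.4% lower of all genes. Interferon-stimulated genes mostly fell. Of 39 interferon-stimulated genes 10 rose, 24 fell and 5 did not pass the threshold (median -0.42), with Oasl2 and Isg15 down by 2.46 and 2.15 and Dhx58, an RNA sensor gene, up by 1.49. Irf7, a transcription factor of the interferon response, rose from 19.5 and 18.0 to 38.2 and 36.5 CPM. Of 18 MHC class I and antigen processing genes 12 rose, 4 fell and 2 did not pass the threshold, H2-Q7, whose sequence is shared in part with H2-Q5, being up by 1.47 and Psme2 down by 1.18. Erap1, which trims peptides for class I, fell from 228 and 228 to 127 and 127 CPM. In the BCL2 family 7 rose, 9 fell and 0 did not pass the threshold of 16. The death-promoting Bax and Bid fell by 1.12 and 1.04, Bmf, also death-promoting, rose by 2.11, and Bcl2l2, a survival gene, by 1.04. Among 22 AP-1, EGR and NR4A genes 8 rose, 10 fell (5 without the second mIL-21 library) and 4 did not pass the threshold, Fosl2 with 1.92 showing the largest rise. Dusp6, a phosphatase gene that acts on ERK, rose by 0.88 and Batf3 fell by 0.42. The 3 steepest falls, chosen here after their values were seen, were those of the low-expressed Fosl1, Fos and Egr2, by 3.17, 1.29 and 1.19. Of 10 genes of the type 17 program 2 rose, 2 fell and 6 did not pass the threshold, the falls being 0 or 1 with any of the 4 libraries left out, with Rora, a nuclear receptor gene, at 1.29.

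**Figure D3:**
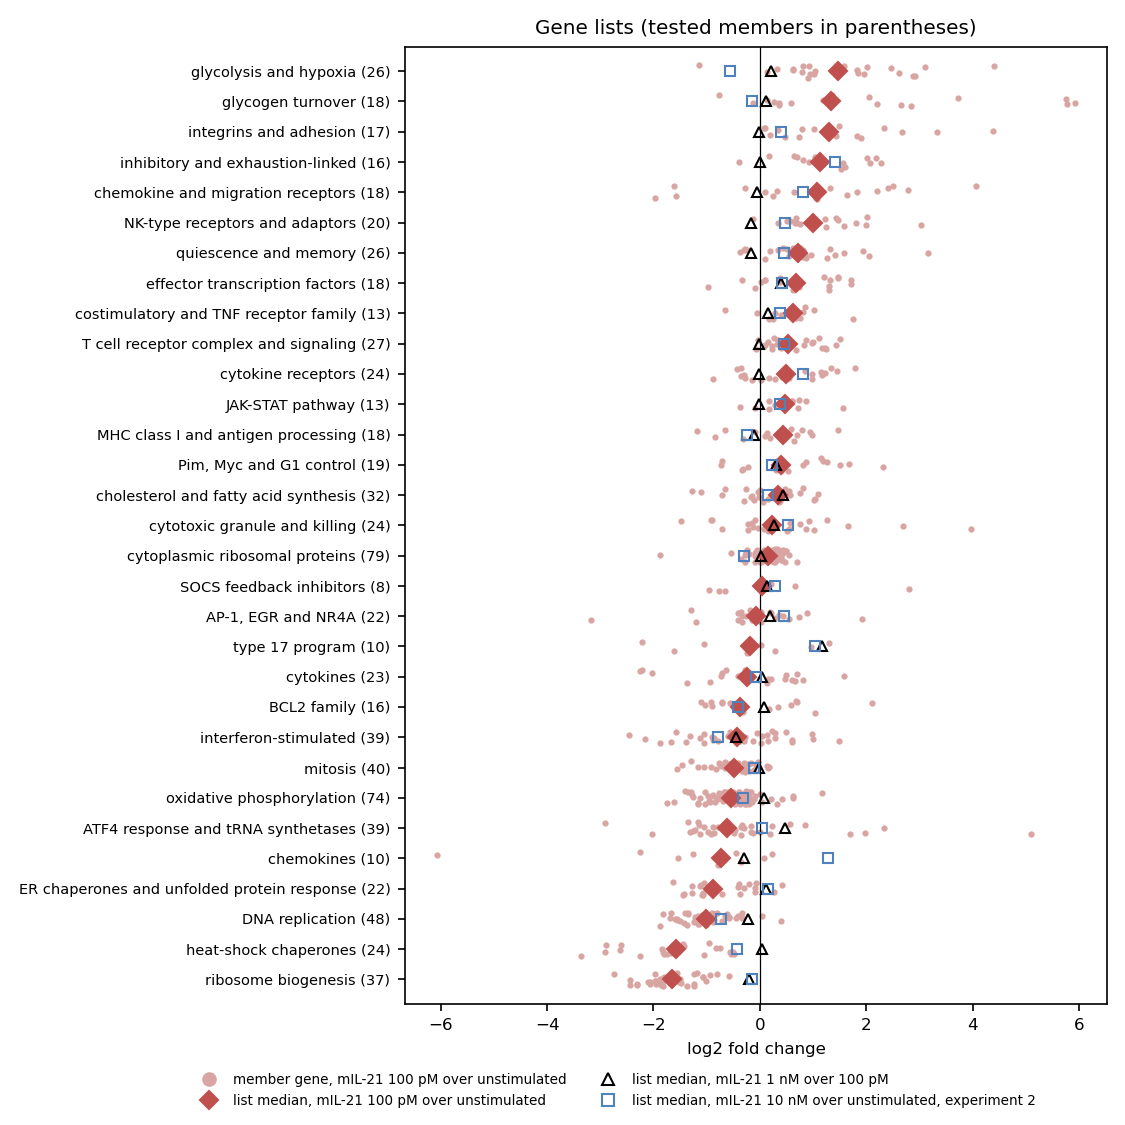
Gene lists in order of their median log2 fold change at mIL-21 100 pM over unstimulated in experiment 1 (filled diamonds, with each tested member as a small point), beside the median of the same list for mIL-21 1 nM over 100 pM (triangles) and for mIL-21 10 nM over unstimulated in experiment 2 (squares). Glycolysis and hypoxia genes have medians of 1.46, 0.21 and -0.56, and ribosome biogenesis genes of -1.66, -0.20 and -0.14, in that order.

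Many of the largest single changes were of genes with few reads on one side. Among genes past the threshold whose higher group reached an RPKM of 1, Grin1, a glutamate receptor gene, rose the most, with 3 and 4 reads in the unstimulated libraries against 725 and 563 at 100 pM. Ace, the angiotensin-converting enzyme gene, had 4 and 4 reads in the unstimulated libraries against 349 and 256 at 100 pM. Cdh1, which encodes E-cadherin, had 26 and 14 reads in the unstimulated libraries against 1130 and 896 at 100 pM and Itga7, an integrin gene, 27 and 23 reads in the unstimulated libraries against 1970 and 1521 at 100 pM. Such folds rest on few unstimulated reads, but the treated libraries of all 4 genes held at least 256 reads. Fxyd7, Epm2a, Mgat3, Ppp1r3g, Atcayos and Pygl completed the 10 largest rises, of which Pygl, Epm2a (laforin) and Ppp1r3g serve glycogen metabolism.

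Among the 10 largest falls were 6 small RNA transcripts of 45 to 105 bases (Snord52, Snord42a, Snord99, Snord69, Mir1306 and Mir3062), which lie wholly or partly within exons of other genes. Snord52 had 52 and 24 reads in the unstimulated libraries against 0 and 0 at 100 pM, which makes it at least 7.19-fold lower (floor of 3 reads per library). The others were Cxcl10, Akr1c18 with 7.72 and 7.49 CPM in the unstimulated libraries and 0.598 and 0.256 CPM at 100 pM, the histone gene Hist1h1b and Tfrc. Tfrc, the transferrin receptor gene through which growing cells take up iron, fell at a high level of expression, from 1019 and 988 to 91.4 and 91.1 CPM (-3.46, SE 0.071, adjusted p = 8.50e-17).

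A second ranking, chosen after the values were seen and limited to transcripts of at least 200 bases whose higher group reached an RPKM of 10, gave Pygl (1.91 and 1.96 CPM in the unstimulated libraries and 118 and 117 CPM at 100 pM), Selenbp2, Selenbp1, Fam183b, Smtnl2, Plcxd1, Acvrl1, Endou, Cd7 and Matk as the largest rises, with log2 fold changes from 4.56 to 5.92. Selenbp1 and Selenbp2 share a stretch of 1712 bases at 98.5% identity, so reads may be divided between them, and Plcxd1 shares 29.3% of its exonic bases with a gene on the other strand. The falls of that ranking, from -2.60 to -6.07, were Cxcl10, Tfrc, Tnfsf4 (the gene of OX40 ligand), Hsph1, Srm (spermidine synthase), Mettl1, Utp20, Ccdc86, Hspd1 and Hsp90aa1.

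The next dose of mIL-21, 1 nM, was compared with 100 pM to see where the response at the lowest dose had not reached its level at the higher one. Between 1 nM and 100 pM 4825 of 13974 genes (34.5%) passed the threshold, 2503 (17.9%) higher and 2322 (16.6%) lower at 1 nM, and 377 (2.7%) and 178 (1.27%) of them with a log2 fold change of at least 1 in either direction. This comparison does not use the unstimulated libraries, but shares those at 100 pM with the one above. Without the first mIL-21 100 pM library 3008 genes passed. Socs3 rose further, to 296 and 312 CPM at 1 nM (2.72 over 100 pM, SE 0.062, adjusted p = 4.77e-15), and so did Gzma (1017 and 1039 CPM, 1.97), Prf1 (1.61), Pim1 (1.48), Bcl3 (1.04), Bcl6 (1.11), Prdm1 (0.76) and Lag3 (1.13). Il10 rose the most of the core genes, to 11.96 and 12.3 CPM (3.86, SE 0.15, adjusted p = 4.45e-12). Gzmb, level at 100 pM, rose to 6072 and 6114 CPM (1.04, SE 0.045, adjusted p = 1.25e-11). Ifng, having fallen at 100 pM, returned to 6.47 and 5.28 CPM, near the 5.60 and 5.45 CPM of unstimulated cells (1.45, SE 0.13, adjusted p = 2.18e-07). Il2ra, likewise lower at 100 pM, was higher at 1 nM by 1.01.

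Klf2 went the other way, down from its level at 100 pM to 10.5 and 10.2 CPM (-1.67, SE 0.076, adjusted p = 2.42e-11), as did Itgax (-1.66), Eomes (-0.76) and, by less, Tcf7 (-0.25). Aldoc changed by 0.32 and Slc2a3 by 0.43, small next to their values against unstimulated cells. Tfrc (0.16, SE 0.068, adjusted p = 0.0720), Hsp90aa1 (0.06, SE 0.057, adjusted p = 0.416) and Pygl (-0.10, SE 0.046, adjusted p = 0.0922) did not pass the threshold.

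List by list, the medians of the step from 100 pM to 1 nM were small for the growth genes. The counts of this step stand beside 17.9% higher and 16.6% lower of all genes. The ribosome biogenesis median was -0.20 with 20 of 37 lower, and that of heat-shock chaperones 0.03 with 2 of 24 lower and 4 higher. The share lower was thus above that of all genes for ribosome biogenesis, and neither share was for the chaperones. The glycolysis and hypoxia median was 0.21, with 16 of 26 higher. DNA replication genes fell again, 30 of 48 (median -0.21). Of the interferon-stimulated genes 25 of 39 were lower and 6 higher (median -0.44), beside 16.6% of all genes lower. The lists of ATF4 targets, cholesterol synthesis and type 17 genes rose in this step. Of the ATF4 targets and tRNA synthetases 35 of 39 rose and 0 fell, where most had fallen at 100 pM, and Cth went back to 14.8 and 12.2 CPM from 2.93 and 2.28 (2.35, SE 0.13, adjusted p = 2.02e-10). Of the cholesterol and fatty acid genes 26 of 32 rose and 0 fell. The type 17 genes, mixed at 100 pM, had 8 of 10 higher and 0 lower (median 1.17).

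At the matched dose of 100 pM, the designed mimic 21h10 gave higher levels than mIL-21 of several STAT target genes. Of 13974 genes 5398 (38.6%) differed, 2745 (19.6%) higher and 2653 (19%) lower with 21h10, and 3505 differed without the first mIL-21 100 pM library. The libraries with 21h10 had 172 and 169 CPM of Socs3, 1.88 (SE 0.061, adjusted p = 4.70e-13) above mIL-21 on the log2 scale, 1055 and 974 CPM of Gzma (1.95, SE 0.050, adjusted p = 3.19e-14) and 7.82 and 6.25 CPM of Il10 (3.05, SE 0.16, adjusted p = 1.58e-10). Klf2 was lower with 21h10 by 1.60 (SE 0.072). The list medians of this comparison were -0.19 for ribosome biogenesis and 0.20 for glycolysis and hypoxia genes. For interferon-stimulated genes the median was -0.52, with 28 of 39 lower and 3 higher.

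Experiment 2 gave the response to native mIL-21 in libraries that share none with experiment 1, at 10 nM, its lowest dose. Dose and experiment cannot be told apart there, and the mice differed as well: Xist, transcribed from the inactive X of females, was at 1151 to 1820 CPM of all reads on genes in the 10 libraries of experiment 1 and at most 0.943 CPM in those of experiment 2, and the Y-linked Ddx3y at most 0.0724 CPM in experiment 1 and 66.7 to 145 CPM in experiment 2. At 10 nM 6363 of 13772 genes (46.2%) passed the threshold, 3098 (22.5%) higher and 3265 (23.7%) lower.

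Of the 2056 genes that had risen by at least 1 at 100 pM and were tested in both, 685 (33.3%) were also higher at 10 nM and 396 (19.3%) lower. Of the 1485 that had fallen by as much, 567 (38.2%) were also lower and 126 (8.48%) higher. Among all 13248 genes tested in both, 22.9% were higher and 24.6% lower at 10 nM, and the log2 fold changes correlated at 0.17 (Pearson) and 0.20 (Spearman) across these genes, which are not independent replicates. The difference between the responses, tested in a fit of all 20 libraries, passed the threshold for 8488 of 14530 genes (58.4%).

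Several targets of the cytokine and effector genes changed in the same direction in both experiments. Socs3 rose by 4.82 (SE 0.089, adjusted p = 1.11e-15) at 10 nM, Bcl3 by 2.78, Prdm1 by 2.12, Bcl6 by 2.33, Gzma by 6.08, Prf1 by 4.02, Itgam by 5.08, Lag3 by 1.95 and Cd7 by 4.26. Jak3 and Stat3 rose by 0.77 and 0.53, and Irf4 fell by 0.78. Cxcl10 fell from 4.35 and 4.34 to 0.167 and 0.139 CPM (-4.80, SE 0.41, adjusted p = 1.06e-07). Klf2 and Tcf7 were higher there too, by 1.08 and 0.69. The list medians for inhibitory receptors were 1.13 at 100 pM and 1.41 at 10 nM, those for T cell receptor genes 0.53 and 0.46, and those for DNA replication -1.01 and -0.73. Interferon-stimulated genes had medians of -0.42 and -0.79, with 24 and 25 of 39 lower and 10 and 3 higher.

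Not all lists of metabolic and growth genes repeated in the same way. Of the glycolysis and hypoxia genes, 2 were higher and 19 lower at 10 nM, and for 24 of 26 the response at 100 pM was above that at 10 nM in the test of the difference, in which 29.1% of all genes were. Pygl, Selenbp1 and Vldlr, with log2 fold changes of 5.92, 5.57 and 5.09 at 100 pM, had -0.41 (SE 0.18, adjusted p = 0.0716), -2.01 (SE 0.24, adjusted p = 4.50e-06) and -2.32 (SE 0.35, adjusted p = 6.34e-05) at 10 nM. The ribosome biogenesis median was -0.14 at 10 nM with 13 of 37 lower, and for 34 of 37 the response at 100 pM was below that at 10 nM (29.4% of all genes). Heat-shock chaperones had a median of -0.43 at 10 nM with 14 of 24 lower, beside 23.7% of all genes. Oxidative phosphorylation genes were mostly lower in both experiments, with medians of -0.54 and -0.32 and with 63 and 42 of 74 lower.

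The unstimulated cells of the experiments already differed in level for these genes, on CPM scales normalized within each experiment. Aldoc stood at 10.7 and 9.99 CPM in unstimulated cells of experiment 1 and 47.3 and 40.5 CPM in those of experiment 2, Pygl at 1.91 and 1.96 against 25.9 and 25.5 CPM, and Klf2 at 3.64 and 3.72 against 58.2 and 47.5 CPM. Conversely Nolc1 was at 347 and 344 against 124 and 136.3 CPM and Hsp90aa1 at 4849 and 4698 against 1338 and 1506 CPM. Unstimulated Socs3 (11.9 and 11.8 CPM in experiment 2) and Gzma (46.6 and 50.2 CPM) lay nearer to their levels in experiment 1. The part of the unstimulated libraries in these differences was not tested. The chemokine gene Ccl3, at -1.55 in experiment 1, had 3.71 at 10 nM, and Ifng reached 57.5 and 56.3 CPM at 10 nM from 4.19 and 4.75 (3.67, SE 0.12, adjusted p = 5.66e-13).

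**Figure D4:**
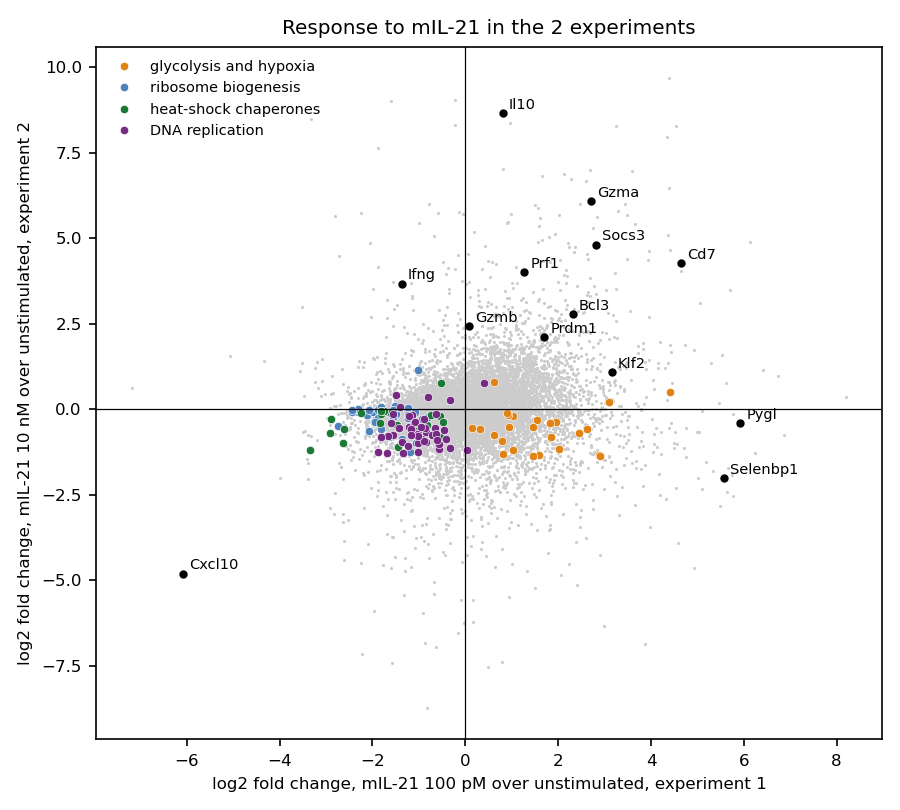
Log2 fold change of each gene tested in both experiments, at mIL-21 100 pM over unstimulated in experiment 1 (horizontal axis) and at 10 nM over unstimulated in experiment 2 (vertical axis), with 4 gene lists coloured and 13 genes labelled. Socs3, Bcl3, Gzma and Prf1 lie above 0 on both axes and Cxcl10 below 0 on both, while most glycolysis and hypoxia genes lie above 0 on the horizontal axis and below 0 on the vertical one.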

How the data were processed

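RNA was sequenced from 20 libraries of mouse CD8+ T cells, 10 in each experiment, in 5 groups of 2 per experiment. The authors deposited for each library a table with read counts and RPKM values of 31682 RefSeq transcripts (build mm10, GRCm38). The submitters' processing notes name TopHat2 2.0.11, Bowtie2 2.2.6, SAMtools 0.1.8, bedtools 2.25.0 and edgeR. The counting tool and whether it used strand are not given in the sources used here, and no UMIs are mentioned, so the errors cover counting and the spread between these libraries only. The RPKM values, which the authors scaled by transcript length and mapped reads, served for limits on expression and as an alternative scale.

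One transcript per symbol, the longest, was kept for 23992 symbols. For 634 of them another transcript had more reads. Libraries of experiment 1 held 36829350 to 94079673 reads on genes. Counts were filtered with filterByExpr (minimum count 10, minimum total 15), scaled by TMM and tested with edgeR 4.0.16 (R 4.3.3; glmQLFit and glmQLFTest, group as the only term), on all 10 libraries of an experiment, or on all 20 for the difference between the responses, with Benjamini-Hochberg adjustment over all genes tested and a threshold of 0.05. The SE is the log2 fold change over the root of F. The procedure was tested on simulated data in which few genes changed, by small amounts and equally in both directions. Most genes were called in the real data, so that test does not show how the scaling holds here. Alternatives were DESeq2 1.42.0, limma 3.58.1 on log2(RPKM + 1), no filter, other library sizes, another transcript, thinned counts, the compared groups alone, a replicate block and each library left out. Duplicate numbers were not taken as pairs: the study's methods speak of independent replicates from different preparations or donors, without saying that a number stands for the same animal or batch in every group.

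Named genes were 32 core genes, the 10 largest rises and 10 largest falls past the threshold with no overlap between libraries and an RPKM of 1 reached in the higher group (clone names left out), and in each of 29 gene lists and 9 marker lists up to 2 largest rises and 2 largest falls. The lists are those reported one by one. In 5 of the gene lists 1 to 3 members fell to the filter on low counts, and in 2 others 1 member had no row in the tables. The members and lists were chosen with earlier results of these data known, and 2 lists (heat-shock chaperones and glycogen turnover) and the ranking of abundant genes after their values were seen. Up to 2 rises and 2 falls of each of those lists are also among the 160 named genes. So are the 10 rises and 10 falls of that ranking. Promoter windows and gene positions came from RefSeq (GRCm38.p6). Exons that share bases with another gene, and near-identical copies, were looked for in the reference annotation. Some results are not reported here.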

Additional observations from a re-analysis of the deposited data

Results flagged for a closer look

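Genes are given here where the response to mIL-21 at 100 pM in experiment 1 and that at 10 nM in experiment 2 were both past the threshold in opposite directions, with a tested difference (log2 fold change in experiment 1 less that in experiment 2, tested with edgeR and adjusted by Benjamini-Hochberg over 14530 genes). Of the 160 genes named by the rules, some of them chosen after their values were seen, 28 met this. Of these, 20 rose in experiment 1 and fell in experiment 2, and 8 did the reverse. Dose, experiment and the sex of the mice cannot be told apart in them.

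Among the genes that rose in experiment 1, the difference was 0.77 for Eomes, 8.33 for Epm2a, 7.72 for Ppp1r3g, 7.40 for Selenbp2, 7.62 for Selenbp1, 5.75 for Smtnl2, 7.04 for Plcxd1, 6.18 for Endou, 5.61 for Matk, 2.23 for Tnfrsf4, 2.09 for Ltb, 4.08 for Cxcr4, 1.57 for Bcl2l2, 2.41 for Dhx58, 1.89 for Irf7, 4.61 for Mxd4, 2.46 for Mxi1, 1.67 for Ndufv3, 7.44 for Vldlr and 0.77 for P4hb. The largest adjusted p among them was 3.97e-06. Epm2a and Ppp1r3g rested on fewer than 6 reads per unstimulated library of experiment 1. In experiment 2 Epm2a was near the floor, at 0.433 and 0.327 CPM in the unstimulated libraries and 0.0279 and 0.0927 CPM at 10 nM.

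Among the genes that fell in experiment 1, the difference was -0.87 for Batf, -4.99 for Ifng, -4.61 for Hist1h1b, -2.33 for Socs2, -2.82 for Btla, -1.45 for Il2ra, -5.22 for Ccl3 and -2.35 for Hspa5. Ifng, with -1.37 at 100 pM and 3.67 at 10 nM, and Ccl3, with -1.55 and 3.71, differed the most of these. Hist1h1b rested on few reads, 90 and 35 in the unstimulated libraries of experiment 1 and 5 and 1 at 100 pM. The largest adjusted p among them was 2.46e-06. No group had the 4 samples that a search for single outlying libraries needs.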

How the results depend on the processing

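The comparison of mIL-21 at 100 pM with unstimulated cells gave between 9021 genes (limma on log2(RPKM + 1)) and 11352 (the compared groups alone) against 10858, and 9969 to 10206 with each library left out in turn. DESeq2 gave 10383. With the limit of 1 on the log2 fold change 3916 remained under the threshold, and limma on log2(RPKM + 1), a scale that shrinks low values, gave 970 higher and 828 lower past that limit. With each library of its groups left out, 1 nM against 100 pM gave 3008 to 4255 genes and 21h10 against mIL-21 3505 to 3934, lowest in both without the first mIL-21 100 pM library, and the cause was not tested. Experiment 2 gave 4749 to 6365.

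The replicate block gave 10768 genes, and 4557, 5165, 6540 and 8524 for the dose step, 21h10, experiment 2 and the difference of responses. The numbers did not pair the libraries: the duplicates' differences correlated at -0.07 between the unstimulated and mIL-21 groups. In experiment 2, where this was -0.34, a crossed pairing chosen after seeing the data gave 6812 genes.

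Of the 160 named genes 148 kept direction and call under all 12 alternatives. Socs1 ran from -0.0427 to 0.0862 and Maf from -0.137 to 0.263 with each library left out. Socs1 was negative (-0.0427) without the first mIL-21 library and at -0.0028 without the first unstimulated one, and Maf was negative (-0.0072) without the filter, at -0.0113 without the first mIL-21 library and at -0.137 without the second unstimulated one. Neither gene had passed the threshold. The other genes whose call changed were Il21r, Stat5a, Gzmb, Il10, Ccr7, Gzmd, Il4, Nr4a3, Cenpa and Rps4l. Library sizes from mapped reads moved the median of all genes to 0.07. Depth limits genes of few reads: 163 tested genes had 3 reads or fewer in both unstimulated libraries.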
